A study of Mus musculus with 11 samples.

Results

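The Stra8-high wells are single sorted germ cells of the adult mouse testis with the highest score over 5 genes, Stra8, M1ap, Syt7, Rhd and 1700019B21Rik. The score is the mean over the 5 genes of ln(1 + UMIs per 10000), where a UMI is a unique molecular identifier that marks 1 captured mRNA molecule. The 5% of wells with the highest score within each mouse were taken, which gave 62 of the 1228 wells with at least 3000 UMIs, from 1920 wells in all. Mouse 1 gave 24 of 475 kept wells, mouse 2 gave 14 of 273 and mouse 3 gave 24 of 480. The cells came from 3 untreated adult Dazl-GFP reporter mice, in which green fluorescent protein is driven by regulatory DNA of Dazl, a gene of germ cells, and were sorted as live and GFP-positive by SORT-Seq, 1 cell per well. Per the labels the testes were adult, with no other allele and no agent in any group. Mouse 1 was measured with CEL-Seq1 in 8 libraries, mouse 2 with CEL-Seq2 in 1 library and mouse 3 with CEL-Seq2 in 2 libraries, so the protocol and the mouse cannot be told apart. All 3 mice carried all groups compared below, the replicate is the mouse (n = 3), and no 2 kept wells held identical counts.

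In the adult testis, spermatogonia divide by mitosis, respond to pulses of retinoic acid, copy their DNA a last time and enter meiosis. STRA8 is a transcription factor induced by retinoic acid that acts with MEIOSIN to switch on genes of meiosis in preleptotene cells, the cells in that last round of DNA replication. In leptotene and zygotene the chromosomes form protein axes held by meiotic cohesin, SPO11 cuts the DNA at places marked by PRDM9, and DMC1 takes part in repairing the cuts by strand exchange before the long pachytene stage. 3 groups of wells were set beside the Stra8-high wells: all 1166 other kept wells, a spermatogonia set and a leptotene set of 62 wells each. The spermatogonia set was chosen in the same way by Kit, Pou3f1, Crabp1, Dmrtb1 and Sohlh1, and the leptotene set by Dmc1, Eml5, Meiob, Spata22 and Hormad1, from the wells that were not Stra8-high. Both sets are named for these genes, and whether they also hold wells of other stages was not tested.

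Stra8 itself was present in every one of the 62 wells. In UMIs per 10000 it ranged from 4.88 to 41.3 with a median of 18.2 in mouse 1, from 15.2 to 50.2 with a median of 33.0 in mouse 2, and from 4.00 to 52.5 with a median of 26.9 in mouse 3. The medians of the other kept wells were 0, 0.252 and 0.116, although their highest wells reached 17.1, 35.7 and 41.0. Single wells with much Stra8 therefore lay outside the group where the other 4 genes were low. With the counts of all wells of a mouse summed and scaled to counts per 1000000 UMIs (CPM), Stra8 stood at 1708, 2908 and 2816 CPM in mice 1, 2 and 3, against 57.8, 145 and 101 CPM in the other wells. These values chose the wells and are given as a description, with no test. Stra8 lies at chr6:34920163-34939344 on the plus strand (mm10, gene bounds from RefSeq). The Stra8-high wells held 32.7%, 34.4% and 30.7% of the Stra8 UMIs of all kept wells in the 3 mice.

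The other 4 genes of the score are less often described in this step. M1ap, a gene required for meiosis in males, stood at 252, 691 and 562 CPM against 22.1, 46.0 and 30.4 CPM in the other wells. Syt7, a calcium sensor of membrane fusion, stood at 323, 452 and 422 CPM against 14.1, 33.1 and 17.9 CPM. Rhd, a Rhesus blood group protein of red cells, was low throughout, at 82.6, 82.1 and 86.5 CPM against 2.59, 6.26 and 3.71 CPM. 1700019B21Rik, listed by RefSeq as the long non-coding RNA Tslrn1 on the X chromosome, stood at 221, 335 and 350 CPM against 8.58, 19.7 and 13.9 CPM. In all 5 genes every mouse was higher in the chosen wells, which the rule fixes. The well just inside the cut-off had a score of 0.951 in mouse 1, 1.52 in mouse 2 and 1.29 in mouse 3, and the well just outside had 0.905, 1.50 and 1.28, so the cut-off fell within a continuous range.

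**Figure D1:**
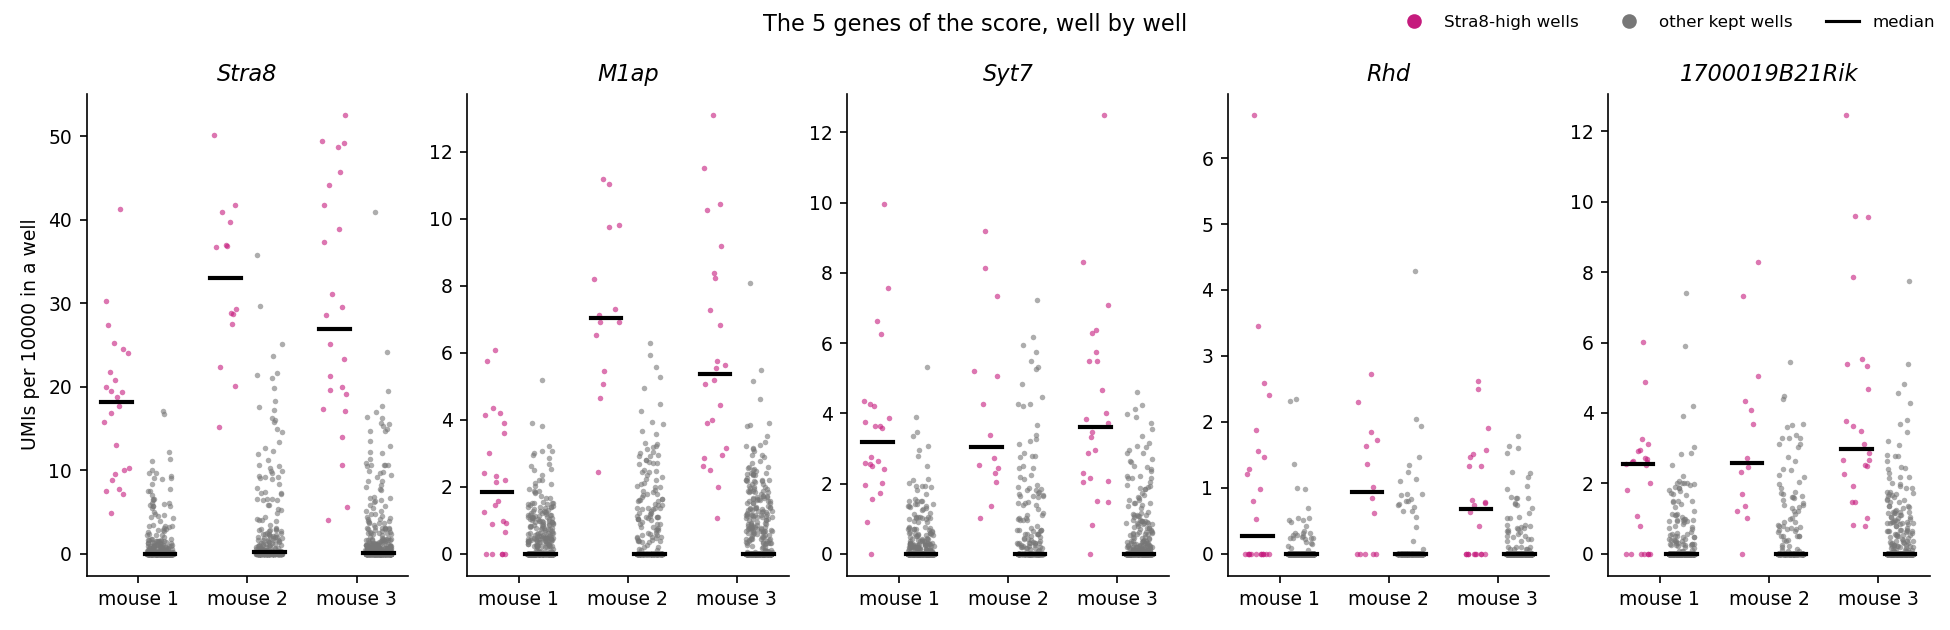
Level of the 5 genes of the score in each kept well, in UMIs per 10000 (vertical axes, linear and different for each gene), for Stra8-high wells (pink) and other kept wells (grey) of each mouse, with black bars at the medians. In Stra8 the medians of the Stra8-high wells are 18.2, 33.0 and 26.9, while some grey wells reach 41.0.

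The Stra8-high wells were shallow compared with the rest. They held a median of 10452, 9830 and 11868 UMIs per well in mice 1, 2 and 3, against 23743, 13453 and 20492 in the other wells, 32760, 18886 and 26372 in the spermatogonia set and 8593, 5873 and 11607 in the leptotene set. Beside them, the number of genes seen in 3000 UMIs drawn from each well differed little, with medians of 1912, 1985 and 1943 against 1936, 1930 and 1928 in the other wells. The summed counts of the Stra8-high wells came to 266433, 146145 and 277374 UMIs. Every comparison was therefore also made with each well thinned to 3000 UMIs, and calls that thinning ends are named. In mouse 3 the library sorted by a gate alone gave 11 members of 267 kept wells (4.12%, exact binomial 95% interval 2.07 to 7.25%) and the index-sorted library 13 of 213 (6.10%, 3.29 to 10.2%).

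To see which genes accompany the score, UMIs were summed per mouse and class, without the 5 genes, and tested with the mouse as a block. A gene was called at a Benjamini-Hochberg adjusted p under 0.05 in the quasi-likelihood test of edgeR. Genes that vary from well to well together with the 5 genes differ by the choice of wells, so the calls describe what goes with the score and are no independent evidence of a cell type. Of 11558 genes tested, 2076 (18.0%) were higher and 3230 (27.9%) were lower than in the other kept wells, with a median log2 fold change of -0.23 over all genes. Thinning to 3000 UMIs left 7489 genes tested, with 849 higher and 916 lower. Against the spermatogonia set, 1600 of 6371 genes (25.1%) were higher and 1776 (27.9%) lower. Against the leptotene set, 362 of 5366 genes (6.75%) were higher and 292 (5.44%) lower. The last comparison rested on few animals: without mouse 1 there were 201 and 146 calls, without mouse 2 there were 619 and 518, and without mouse 3 there were 50 and 27. DESeq2 gave 61 and 45, and edgeR without the mouse block 61 and 29.

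The largest rise against the other wells was that of Rbpms2. Rbpms2, an RNA-binding protein, stood at 248, 438 and 418 CPM in mice 1, 2 and 3 and at 13.9, 31.7 and 26.4 CPM in the other wells, without overlap. Its log2 fold change was 3.82 ± 0.21 (SE), with an edgeR adjusted p of 5.8e-71. Prdm9, the histone methyltransferase whose zinc fingers place the meiotic DNA breaks, stood at 315, 493 and 379 CPM against 21.7, 43.5 and 27.0 CPM, a log2 fold change of 3.57 ± 0.20. Mei1, required to form those breaks, stood at 244, 452 and 357 CPM against 16.9, 35.1 and 28.3 CPM, also 3.57 ± 0.21. All 3 mice were higher for each of these genes. Lamb2, a laminin chain, rose by 3.68 ± 0.36, Myrf, a membrane-bound transcription factor, by 3.67 ± 0.32, and the X-linked Tspyl2, of the nucleosome assembly protein family, by 3.63 ± 0.36 on the log2 scale. Lzts3 (3.39 ± 0.34), the homeobox gene Pbx3 (3.32 ± 0.33), Gm773 (3.31 ± 0.25) and Dnmbp (3.27 ± 0.32) completed the 10 largest.

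The genes of the 10 largest falls against the other wells were each seen with 3 to 7 UMIs in the Stra8-high wells. Dnahc7b, an axonemal dynein heavy chain, stood at 11.3, 0 and 3.60 CPM against 327, 84.8 and 55.7 CPM, a log2 fold change of -4.99 ± 0.46 (edgeR adjusted p = 8.06e-26). Its neighbour Dnahc7a had 3 UMIs, 29.4-fold lower (counting interval 10 to 142). The 2 genes are near copies, so reads between them are uncertain. Insl6, an insulin-like peptide of the testis, stood at 0, 6.84 and 10.8 CPM against 112, 96.4 and 118 CPM. Sept12, a septin of the sperm tail, stood at 0, 13.7 and 18.0 CPM against 111, 119.9 and 197 CPM, and its call was lost on thinning (edgeR adjusted p = 0.0644). Gstt2, Lrrc71, Gm4763, 1700074P13Rik, 1700012B09Rik and Aurka made up the rest of the 10, from -4.85 to -4.08 on the log2 scale. All 10 were lower in 3 of 3 mice.

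The 3 sets of wells gave these genes different orders. Rbpms2 had a mean of 368 ± 105 CPM (SD, n = 3) in the Stra8-high wells, 20.9 ± 7.32 CPM in the spermatogonia set and 391 ± 174 CPM in the leptotene set, so it did not differ from the leptotene set beyond the spread between mice. Prdm9 gave the same order, at 396 ± 89.9, 27.6 ± 10.3 and 398 ± 324 CPM, with the leptotene value carried by mouse 2 at 770.4 CPM. Mei1 was higher than in both sets, at 351 ± 104 CPM against 65.7 ± 14.5 and 172 ± 97.0 CPM, with a log2 fold change of 1.13 ± 0.25 over the leptotene set (edgeR adjusted p = 0.00621). Myrf was likewise higher than in the leptotene set, by 2.55 ± 0.45, as were Lamb2 (1.56 ± 0.39), Lzts3 (1.76 ± 0.40), Gm773 (1.29 ± 0.28) and Dnmbp (2.09 ± 0.40). Each of these 6 genes was also higher than in the spermatogonia set. Against the leptotene set the 6 calls were lost without mouse 3, with edgeR adjusted p from 0.0855 to 0.188.

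**Figure D2:**
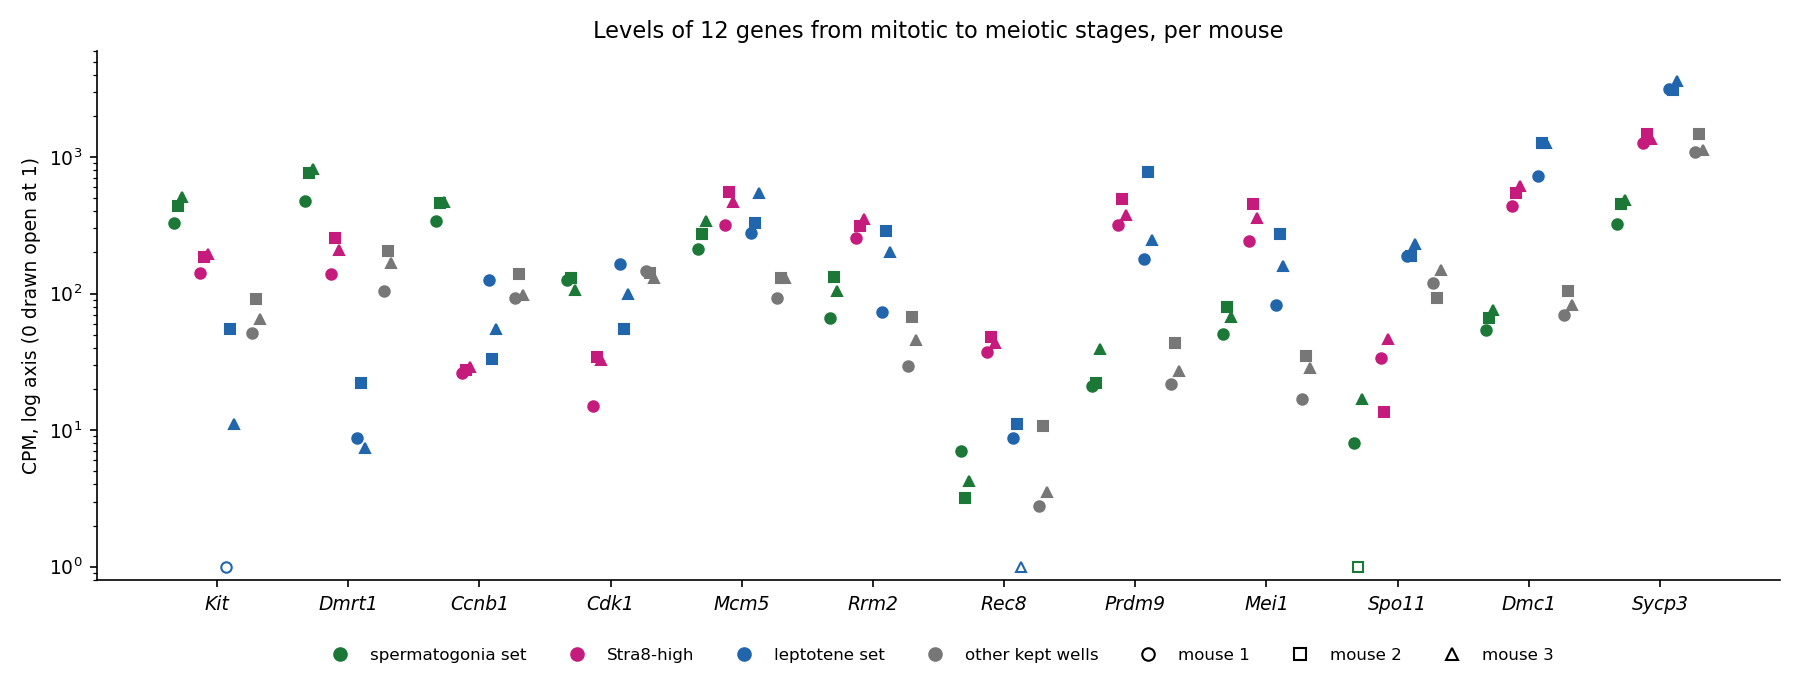
CPM of 12 genes (horizontal axis) in the summed wells of each mouse (marker shape) in the spermatogonia set (green), Stra8-high wells (pink), leptotene set (blue) and other kept wells (grey), on a log axis with values of 0 drawn open at 1. Kit and Dmrt1 step down from green over pink to blue, Sycp3 steps up, and Rec8 is highest in pink, at 37.5 to 47.9 CPM. Kit was among the genes that chose the green set and Dmc1 among those that chose the blue set, so their high levels there are fixed by the choice.

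The promoters of some of these genes hold the sequence that STRA8 is known to bind. The motif CNCCTCAG, searched on both strands of the RefSeq promoters of GRCm38.p6 (250 bases before to 50 after a start), was found in 15.0% of 2245 promoters of genes higher than in the other wells, in 7.33% of 3276 promoters of genes that were lower and in 9.59% of 11799 promoters of all genes tested. The motif was in 7.94% of all 32851 promoters given. The median GC content was 62.7%, 59.7% and 60.7% in the first 3 of these groups, and its part in the difference was not tested. A match says only that the letters are present in the window. The named genes with the motif in a stretch outside annotated exons were M1ap of the score, the higher genes Prdm9, Tspyl2, Prss50, Kif23, Pds5b, Ctsl and Cldn11, the lower genes Sept12, Rbm46 and Stk31, and Cdk2 and Hfm1, which were not called. The stretches of M1ap, of 3 higher genes and of the lower gene Stk31, 68 bases each, are shown as examples in the direction of the gene with the motif or its reverse complement in capitals.
M1ap, chr6:82946781-82946848, plus strand: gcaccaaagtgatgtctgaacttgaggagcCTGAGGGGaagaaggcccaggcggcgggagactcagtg
Prdm9, chr17:15564358-15564425, minus strand: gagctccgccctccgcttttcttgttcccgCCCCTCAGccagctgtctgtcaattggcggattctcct
Tspyl2, chrX:152342639-152342706, minus strand: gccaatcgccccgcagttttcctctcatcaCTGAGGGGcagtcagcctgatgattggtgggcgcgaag
Prss50, chr9:110857770-110857837, plus strand: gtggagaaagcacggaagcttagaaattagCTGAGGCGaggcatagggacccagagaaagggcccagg
Stk31, chr6:49395527-49395594, plus strand: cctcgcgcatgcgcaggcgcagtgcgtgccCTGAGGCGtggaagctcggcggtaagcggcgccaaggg
The motif began 111 bases before the start in M1ap, 41 in Prdm9, 192 in Tspyl2, 164 in Prss50 and 47 in Stk31. None of these stretches overlapped an exon of the GENCODE vM21 annotation. Prss50, a testis protease, stood at 537, 1341 and 1136 CPM against 54.5, 179 and 98.5 CPM in the other wells.

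The list of regulators of meiotic entry did not enter the score. Of 17 such genes tested against the other wells, 8 were higher and 3 lower, beside 18.0% and 27.9% of all genes, with a median log2 fold change of 0.35. Rec8, the meiotic cohesin subunit that STRA8 is known to act on, stood at 37.5, 47.9 and 43.3 CPM against 2.78, 10.7 and 3.54 CPM in the other wells, 7.05, 3.17 and 4.22 CPM in the spermatogonia set and 8.69, 11 and 0 CPM in the leptotene set. Its log2 fold change was 3.03 ± 0.50 over the other wells and 2.89 ± 0.55 over the spermatogonia set. It rested on 29 UMIs in 21 of 62 wells (33.9%, exact binomial 95% interval 22.3 to 47.0%), and the other wells with a UMI were 9.09%. At 3000 UMIs the shares were 12.9% and 2.57%. Rec8 was too low in the leptotene set for the test.

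Meioc, under its older name Gm1564 in the table, keeps meiotic cells from returning to mitosis together with Ythdc2. Gm1564 stood at 548, 1013 and 840 CPM against a mean of 74.0 ± 28.7 CPM in the spermatogonia set, 664 ± 226 CPM in the leptotene set and 388 ± 81.6 CPM in the other wells, a log2 fold change of 3.44 ± 0.16 over the spermatogonia set. Ythdc2 stood at 252, 178 and 191 CPM, above the spermatogonia set (1.70 ± 0.22), and its call against the other wells (0.78 ± 0.20) was lost without the mouse block. Dazl, which prepares germ cells for meiosis, was nearly equal among the mice, at 2537, 2648 and 2542 CPM, and higher than in the other wells by 0.94 ± 0.15. Taf7l, an X-linked member of the basal transcription machinery of germ cells, stood at 856, 1163 and 1345 CPM against 148, 307 and 232 CPM, a log2 fold change of 2.18 ± 0.15. Mael and Rbm46 were lower than in the other wells, with log2 fold changes of -1.14 ± 0.16 and -0.61 ± 0.18, both lost as calls on thinning.

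Of 20 retinoic acid genes of synthesis, receptors and binding proteins, 7 had no UMI in the Stra8-high wells and 10 passed the filter against the other wells. Of these 2 were higher and 1 lower, beside 18.0% and 27.9% of all genes, so the share of higher genes was near that of all genes. Rdh10, which makes retinal, stood at 33.8, 41.1 and 43.3 CPM against 11.2, 13.4 and 12.1 CPM (1.54 ± 0.45). The receptor Rarg was called at 1.21 ± 0.47, with an edgeR adjusted p of 0.0236 that rose to 0.151 without mouse 2. The receptor Rara had 15.0, 61.6 and 18.0 CPM against 9.57, 12.9 and 12.7 CPM (edgeR adjusted p = 0.0807). The binding protein Crabp1 and the enzyme Aldh1a2 did not pass the test against the other wells. Rdh11 had 2 UMIs in the Stra8-high wells and 1845 in the others, a level 16.2-fold lower (exact interval of the ratio for counting error 4.48 to 134).

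Of 48 DNA replication genes tested against the other wells, 27 were higher, 7 lower and 14 not called, beside 18.0% higher and 27.9% lower among all genes, with a median log2 fold change of 0.78 against -0.23 for all genes. Thinning left 12 higher and 2 lower. Their summed level was 77.8, 92.1 and 89.5 UMIs per 10000 in the Stra8-high wells, 79.4, 74.2 and 81.7 in the spermatogonia set, 55.4, 73.0 and 65.5 in the leptotene set and 49.9, 47.9 and 48.1 in the other wells. Mcm5, a subunit of the replicative helicase, stood at 319, 554 and 469 CPM against 92.9, 130 and 130 CPM in the other wells (1.74 ± 0.17). Pole, the catalytic subunit of the leading-strand polymerase, was higher by 1.79 ± 0.17, and Lig1, the ligase that joins the lagging strand, by 1.87 ± 0.17. Rrm2, the ribonucleotide reductase subunit that supplies deoxynucleotides, was higher by 2.62 ± 0.20 and was named after its values were seen. Pcna, the sliding clamp, was at 642, 650.0 and 894 CPM against 552, 528 and 628 CPM and did not pass the test. Pola2 differed between the mice, at 1329 CPM in mouse 1 and 82.1 and 141 CPM in mice 2 and 3.

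Against the spermatogonia set, replication was not raised as a whole. Of 46 genes tested 14 were higher and 10 lower, beside 25.1% and 27.9% of all genes, with a median of 0.10. Against the leptotene set 8 of 41 were higher and none lower, beside 6.75% and 5.44% of all genes. The median was 0.59, and 1 was higher without mouse 3. Pold1, the catalytic subunit of a lagging-strand polymerase, stood at 82.6, 369.5 and 281 CPM against 26.1, 11 and 33.1 CPM in the leptotene set (2.95 ± 0.40). Ccne2, a cyclin of the start of replication, was higher than in every comparison group, by 1.34 ± 0.24, 2.05 ± 0.25 and 1.50 ± 0.32 over the other wells, the spermatogonia set and the leptotene set. Its level differed among the mice, at 379, 123 and 54.1 CPM, and without the mouse block the call against the other wells was lost (edgeR adjusted p = 0.348). The call against the leptotene set was lost without mouse 1 (0.146) and without mouse 3 (0.0812).

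Genes of mitotic division were mostly lower, with exceptions. Of 38 tested against the other wells 23 were lower and 7 higher, beside 27.9% and 18.0% of all genes. Against the spermatogonia set 26 of 36 were lower and 3 higher, beside 27.9% and 25.1% of all genes. Against the leptotene set 6 of 29 were lower and none higher, beside 5.44% and 6.75% of all genes. Ccnb1, the cyclin that triggers mitosis, stood at 26.3, 27.4 and 28.8 CPM against 343, 459 and 470.1 CPM in the spermatogonia set, a log2 fold change of -3.93 ± 0.24. Against the other wells it was lower too (-2.09 ± 0.33), but not in wells chosen by Stra8 alone (0.28). Its partner kinase Cdk1 stood at 15.0, 34.2 and 32.5 CPM against 125, 130 and 106 CPM (-2.19 ± 0.33). Cdc20, which activates the anaphase-promoting complex, had a log2 fold change of -2.84 ± 0.32. These 3 genes fall outside the naming rule and were chosen after their values were seen. Aurka, a spindle kinase, had 5 UMIs in all Stra8-high wells (7.51, 0 and 10.8 CPM) against 64.5, 136 and 88.7 CPM in the spermatogonia set (-3.59 ± 0.49). Aurkb had 3 UMIs, 22.7-fold lower than in that set (counting interval 7.65 to 111).

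Some abundant genes of the list were higher than in the other wells. Kif23, a kinesin of cytokinesis, stood at 353, 369.5 and 537 CPM against 58.1, 109 and 68.0 CPM in the other wells (2.34 ± 0.18). Bub1, a spindle checkpoint kinase, was higher by 1.05 ± 0.17 and Top2a, the DNA topoisomerase, by 0.76 ± 0.15. Mki67 was called at 0.48 ± 0.18, and the call was lost with DESeq2. The summed level of the list, in which such abundant genes weigh most, overlapped that of the other wells, at 52.3, 47.3 and 57.7 UMIs per 10000 against 52.7, 58.1 and 48.9. In all 3 mice the summed level lay below both the spermatogonia set, at 75.7, 96.3 and 80.0, and the leptotene set, at 69.0, 88.6 and 77.9. Top2a (-0.76 ± 0.18), Bub1 (-1.08 ± 0.21) and Mki67 (-1.02 ± 0.23) were called lower than in the leptotene set, and Kif23 was not called there. Against the other wells the number of lower genes was 15 with DESeq2, 14 without the block and 11 on thinning.

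Of 19 D-type and E-type cyclins, kinases and inhibitors 4 were higher and 4 lower than in the other wells, near the 18.0% and 27.9% of all genes. Ccnd1 stood at 90.1, 41.1 and 46.9 CPM, against 235, 481 and 311 CPM in the spermatogonia set and no UMI in the leptotene set, over which it was at least 12.3-fold higher (3 counts over the group as the floor). Ccnd2, a cyclin of dividing spermatogonia, had 1 UMI in the Stra8-high wells, 16.5-fold lower than in the other wells (counting interval 2.96 to 654). In wells chosen by Stra8 alone its log2 fold change was 0.23, so the direction turned.

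All 4 genes of meiotic cohesin, the rings that hold meiotic chromosome axes, were higher than in the other wells, beside 18.0% of all genes. Beside Rec8, Smc1b stood at 1152, 1245 and 1143 CPM against 448, 571 and 455 CPM (1.12 ± 0.15) and Stag3 at 694, 1218 and 1121 CPM against 423, 529.7 and 565 CPM (0.81 ± 0.15). Rad21l, at 30.0, 34.2 and 3.60 CPM, was at least 13.7-fold higher than in the spermatogonia set, where it had no UMI. Of the 14 genes of mitotic cohesin and its loaders 9 were higher and 2 lower, beside 18.0% and 27.9% of all genes. Smc3, shared by mitotic and meiotic rings, was higher by 2.02 ± 0.16 and Esco2, which acetylates cohesin during replication, by 2.49 ± 0.18. The loader Nipbl was at 676, 458 and 379 CPM against 39.3, 12.7 and 36.6 CPM in the spermatogonia set (3.94 ± 0.22). The mitotic kleisin Rad21, the counterpart of Rec8, went the other way, at 75.1, 54.7 and 79.3 CPM against 407, 522 and 507 CPM in the spermatogonia set (-2.73 ± 0.20), and was named after its values were seen. Against the leptotene set none of 2 meiotic cohesin genes tested was higher and 1 was lower, beside 6.75% and 5.44% of all genes. Of 13 mitotic cohesin genes none was higher and 1 was lower there. Smc1b was lower (-0.55 ± 0.18), at a mean of 1180 CPM against 1788 CPM. Stag3 (0.03 ± 0.18), Smc3 (-0.02 ± 0.21), Nipbl (-0.31 ± 0.21) and Esco2 (0.51 ± 0.24) were not called. Rec8 and Rad21l were not tested there, at means of 42.9 and 22.6 CPM against 6.57 and 38.5 CPM.

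Genes of the synaptonemal complex and the axis stood between the sets. Their summed level was 61.9, 62.1 and 62.6 UMIs per 10000, against 15.8, 18.6 and 17.8 in the spermatogonia set and 124, 128 and 134 in the leptotene set, with no overlap. Hormad1 of this list was among the genes that chose the leptotene set, so part of the gap to that set is fixed by the choice. Its mean was 413 CPM in the Stra8-high wells and 869 CPM in the leptotene set. All 9 genes tested against the spermatogonia set were higher, beside 25.1% of all genes, with a median log2 fold change of 1.69. Of 8 tested against the leptotene set 5 were lower and none higher, beside 5.44% and 6.75% of all genes. Of these lower calls 1 was left without mouse 3 and 2 without the block. Sycp3, of the lateral element, stood at 1272, 1464 and 1345 CPM, against 324, 449.5 and 487 CPM in the spermatogonia set and 3164, 3114 and 3617 CPM in the leptotene set (1.69 ± 0.14 and -1.29 ± 0.16). Sycp1, of the transverse filaments, and Sycp2 took the same order, and their calls against the leptotene set were lost without mouse 3 (edgeR adjusted p = 0.0621 and 0.105). Against the other wells only Syce2, Tex12 and 4930447C04Rik of the 10 genes were called, all higher, beside 18.0% of all genes.

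**Figure D3:**
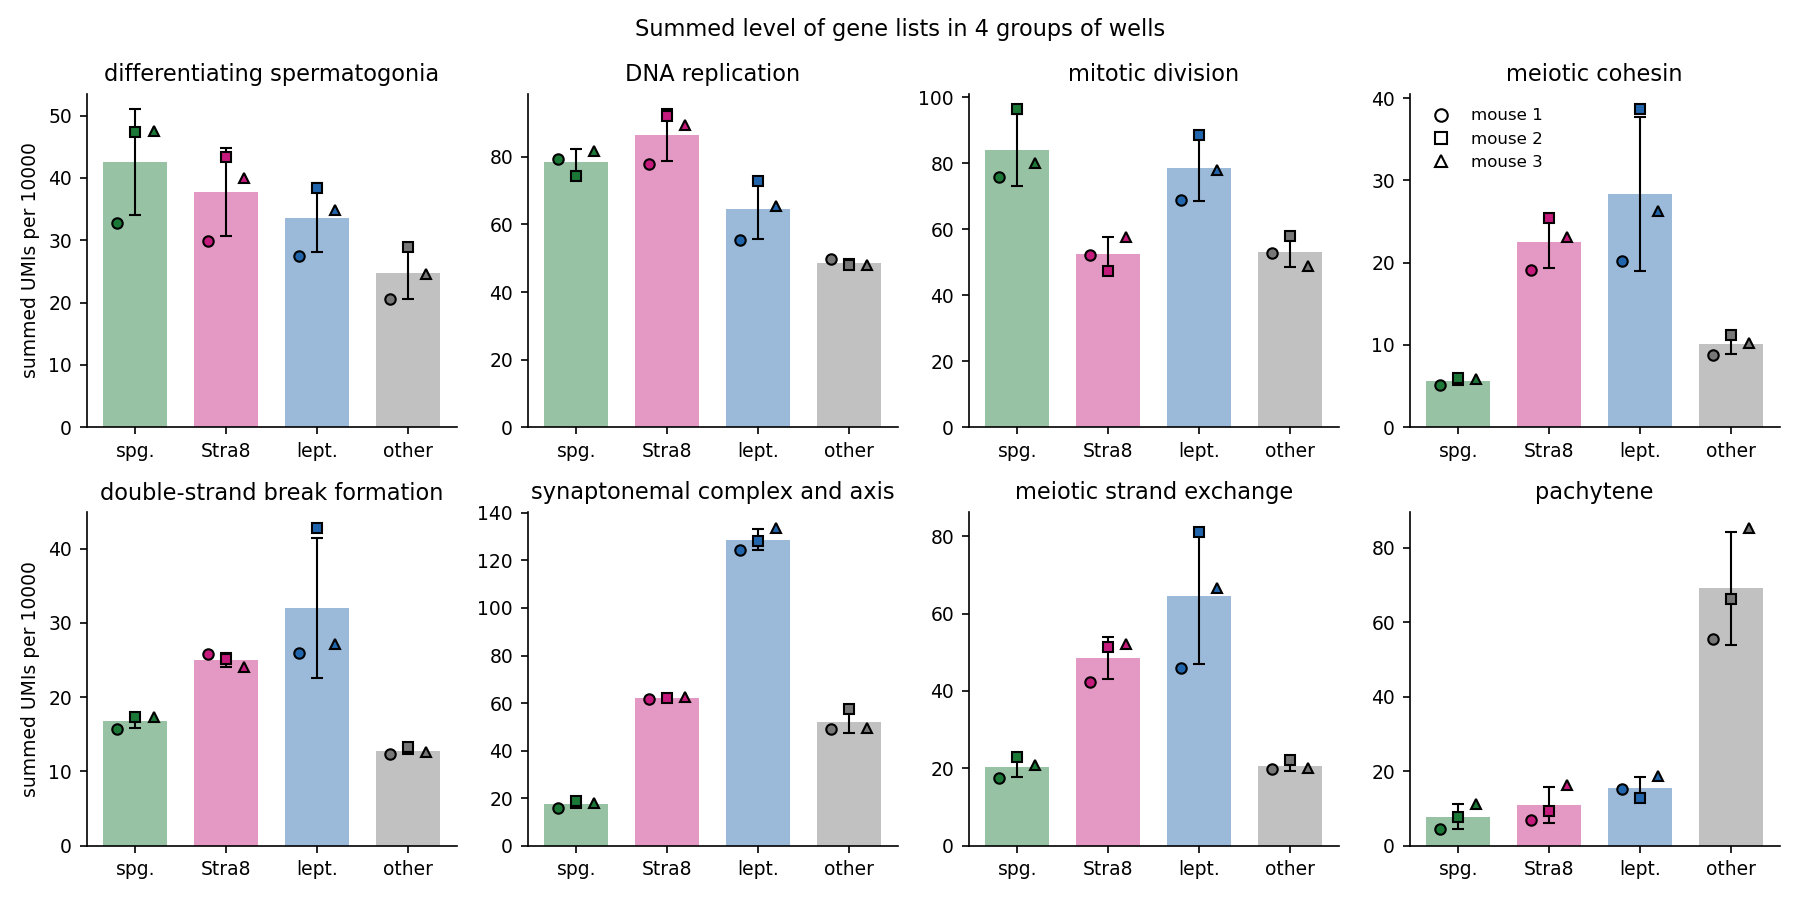
Summed level of 8 gene lists in UMIs per 10000 (vertical axes from 0, different for each list) in the spermatogonia set (spg.), Stra8-high wells (Stra8), leptotene set (lept.) and other kept wells (other). Bars are means over 3 mice, error bars are SD and markers are the mice. The synaptonemal complex and axis list has means of 17.4, 62.2 and 129 in the first 3 groups and includes Hormad1, among the genes that chose the leptotene set. The DNA replication list has its highest mean in the Stra8-high wells at 86.5, but in mouse 1 the spermatogonia set is higher (79.4 against 77.8).

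Of 11 genes of break formation tested against the other wells 8 were higher, beside 18.0% of all genes, with a median of 1.32. Spo11 and Ewsr1 (-0.79 ± 0.17) were lower, beside 27.9% of all genes, and Cxxc1 was not called. The summed level of the list was 25.8, 25.2 and 24.0 against 12.4, 13.2 and 12.7 UMIs per 10000. Zcwpw1, a reader of the mark that PRDM9 writes, stood at 450.4, 192 and 123 CPM against 91.5, 44.5 and 25.4 CPM (2.08 ± 0.22). Hells, a chromatin remodeller that works with PRDM9, was higher by 1.27 ± 0.16. In the leptotene set the list summed to 26.0, 42.8 and 27.2 UMIs per 10000, above the Stra8-high wells in each mouse. Against that set 2 of 11 genes were higher and 2 lower, beside 6.75% and 5.44% of all genes. Zcwpw1 and Hells were not called there, and Hells was not called against the spermatogonia set. Spo11, the nuclease that makes the breaks, stood at 33.8, 13.7 and 46.9 CPM, lower than in the other wells at 120.2, 92.8 and 149 CPM (-2.03 ± 0.30) and the leptotene set at 187, 187 and 232 CPM (-2.57 ± 0.35, edgeR adjusted p = 6.83e-05). A Spo11 UMI was seen in 12 of 62 Stra8-high wells (19.4%, exact binomial interval 10.4 to 31.4%), close to the 22.6% of the deeper spermatogonia set and below the 77.4% of the leptotene set. At 3000 UMIs the 3 shares were 6.45%, 3.23% and 48.4%. Prdm9 by contrast was seen in 90.3% of the Stra8-high wells and 71.0% of the leptotene set, or 66.1% and 50.0% at 3000 UMIs.

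Strand exchange genes gave calls in both directions. Of 22 tested against the other wells 7 were higher and 6 lower, beside 18.0% and 27.9% of all genes. Against the spermatogonia set 9 of 16 were higher and 1 lower, beside 25.1% and 27.9% of all genes. Dmc1, the meiotic recombinase, stood at 435, 541 and 609 CPM, against 54.4, 66.5 and 76.0 CPM in the spermatogonia set (2.98 ± 0.17) and 69.9, 104 and 82.6 CPM in the other wells (2.49 ± 0.17). It chose the leptotene set, which stood at 730.2, 1266 and 1267 CPM, so that difference was not tested. Tex15, required for repair of the meiotic breaks, stood at 1974, 2326 and 2282 CPM against 228, 458 and 332 CPM (2.59 ± 0.15), while Brca2 was higher by 1.34 ± 0.16. Psmc3ip, a partner of DMC1, was lower than in the other wells (-1.71 ± 0.22). In the later crossover list 3 of 11 genes were higher and 4 lower than in the other wells, beside 18.0% and 27.9% of all genes. The list thus gave calls in both directions, among them the X-linked Tex11 (1.68 ± 0.20), Cntd1 (-3.61 ± 0.40) and Mlh3 (-1.71 ± 0.30).

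Of 20 genes of undifferentiated spermatogonia 10 had no UMI in the Stra8-high wells. Of the 10 that passed the filter 6 were lower than in the other wells, beside 27.9% of all genes. Id4, a gene of stem spermatogonia, stood at 30.0, 20.5 and 21.6 CPM against 228, 218 and 269 CPM (-3.45 ± 0.29). It was as low in the spermatogonia set, at 10.1, 12.7 and 38.0 CPM, and in the leptotene set, at 43.5, 22.0 and 29.5 CPM. Neither of these differences was tested, and which of the other wells carried Id4 was not tested. Zbtb16, named after its values were seen, had no UMI in the 62 wells. The exact interval allows up to 5.78% of wells with a UMI at this depth, which does not limit the share of cells that express it. The gene was at least 8.09-fold lower than in the spermatogonia set. Of 19 pachytene genes tested 17 were lower and none higher, beside 27.9% and 18.0% of all genes, with a median of -2.92. Piwil1, of the piRNA pathway, stood at 90.1, 144 and 310.1 CPM against 1018, 1606 and 1885 CPM (-3.24 ± 0.18). Ldhc, a lactate dehydrogenase of germ cells, had a log2 fold change of -3.14 ± 0.18. In 9 spermatid genes no call was made by edgeR.

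Genes of differentiating spermatogonia gave calls in both directions. Of 17 genes of that list 4 were higher and 8 lower than in the other wells, beside 18.0% and 27.9% of all genes. Against the spermatogonia set 4 of 11 were higher and 6 lower, beside 25.1% and 27.9% of all genes. The higher genes there were Tex101 (3.34 ± 0.17), Prss50 (5.0 ± 0.19), Stk31 (1.07 ± 0.18) and Rhox13 (1.66 ± 0.16). Against the leptotene set 6 of 12 were higher and 1 lower, beside 6.75% and 5.44% of all genes. Dmrt1, which holds spermatogonia in mitosis and delays Stra8, stood at 139, 253 and 209 CPM, between 478, 766 and 816 CPM in the spermatogonia set (-1.82 ± 0.16) and 8.69, 22.0 and 7.37 CPM in the leptotene set (4.11 ± 0.45). Kit, the receptor of differentiating spermatogonia, stood at 143, 185 and 195 CPM, against 328, 440.0 and 509.5 CPM in the spermatogonia set, which it chose, and 0, 55.0 and 11.1 CPM in the leptotene set (3.55 ± 0.53, edgeR adjusted p = 0.00019). The Kit call was lost with DESeq2 (adjusted p = 0.0887) and on thinning (edgeR adjusted p = 0.0545). Uchl1 took the same course, at 120.1, 178 and 188 CPM between a mean of 1255 ± 315 and 64.4 ± 48.8 CPM, while Rhox13, an X-linked homeobox gene, was higher than in every comparison group (0.91 ± 0.22 over the leptotene set). The calls of Uchl1 and Rhox13 against the leptotene set were lost without mouse 1 and without mouse 3 (edgeR adjusted p from 0.0638 to 0.231). Dnmt3b, a DNA methyltransferase, had 7 UMIs against 215, 278 and 296 CPM in the spermatogonia set (-4.67 ± 0.37).

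The largest rises over the leptotene set were Dmrt1, Kit, Zglp1 (3.39 ± 0.54), Pold1 and Nt5dc2 (2.92 ± 0.35), with the Zglp1 call lost without the block (edgeR adjusted p = 0.0563). Zglp1 is a zinc finger gene of germ cells and stood at 60.0, 109.5 and 198 CPM against 0, 22.0 and 18.4 CPM. Among the lower genes were 2610020H08Rik, the X-linked Pet2 and Ccnb3, Spo11 and Rad51ap2. 2610020H08Rik stood at 67.6, 41.1 and 79.3 CPM against 769, 231 and 578 CPM (-3.06 ± 0.28) and Pet2 at 90.1, 47.9 and 82.9 CPM against 726, 352 and 534 CPM (-2.85 ± 0.26). Ccnb3, a cyclin of meiotic prophase, had a log2 fold change of -2.77 ± 0.35, lost on thinning (edgeR adjusted p = 0.0589). Rad51ap2 stood at 71.3, 20.5 and 61.3 CPM against 322, 187 and 387 CPM (-2.51 ± 0.30). Against the spermatogonia set the largest rises were Pbx3 (5.40 ± 0.46), Prss50 (5.0 ± 0.19), Lamb2 (4.40 ± 0.43), Aff4 (4.38 ± 0.40) and Strip2 (4.30 ± 0.41), and the largest falls Igsf3, Dnmt3b, Fkbp9, Aurkb and Panx1, of which all but Dnmt3b rested on 3 UMIs in the Stra8-high wells.

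X-linked genes took a larger share of the mRNA than in the other wells. X-linked UMIs made up 3.16, 3.13 and 2.94 per 100 autosomal UMIs in mice 1, 2 and 3, against 1.10, 1.14 and 0.779 in the other wells, 2.68, 2.43 and 2.24 in the spermatogonia set and 3.40, 3.03 and 3.06 in the leptotene set. The log2 ratio to the other wells was 1.63 ± 0.25 (SD, n = 3), positive in 3 of 3 mice, with a two-sided exact permutation p of 0.25, the smallest that 3 mice allow. It was 0.33 ± 0.08 to the spermatogonia set and -0.04 ± 0.08 to the leptotene set. In sums the deep wells weigh more, and with every well thinned to 3000 UMIs the ratio to the other wells fell to 0.84 ± 0.13, at 3.05, 3.11 and 3.01 against 1.80, 1.84 and 1.52. Well by well, the Stra8-high wells spanned 2.53 to 3.96, 2.18 to 3.73 and 2.34 to 3.74 in the 3 mice. Of the other wells 254 of 451, 112 of 259 and 311 of 456 lay below the lowest of them, down to 0.111, 0.0757 and 0.0224. In the leptotene set 3 of 24, 0 of 14 and 2 of 24 wells did so, with lowest values of 0.318, 2.42 and 1.53. The pachytene list summed to 55.6, 66.3 and 85.3 UMIs per 10000 in the other wells, against 6.83, 9.44 and 16.2 in the Stra8-high wells, and its part in the X share was not tested.

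Among X-linked genes, 198 of 379 (52.2%) were higher than in the other wells and 4 (1.06%) lower, with a median log2 fold change of 1.23, against 16.8% higher and 28.9% lower among autosomal genes. Cited1, an X-linked transcriptional co-activator, stood at 522, 671 and 573 CPM, against 53.1, 94.6 and 74.3 CPM in the other wells, 290.2, 396 and 343 CPM in the spermatogonia set and 47.8, 154 and 95.8 CPM in the leptotene set. It was higher than in each of them, by 2.87 ± 0.17, 0.76 ± 0.14 and 2.69 ± 0.27. Phf8, a histone demethylase, was higher than in the other wells by 2.91 ± 0.29 and did not pass the test against the leptotene set. Against the leptotene set 20 of 158 X-linked genes were higher and 12 lower.

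**Figure D4:**
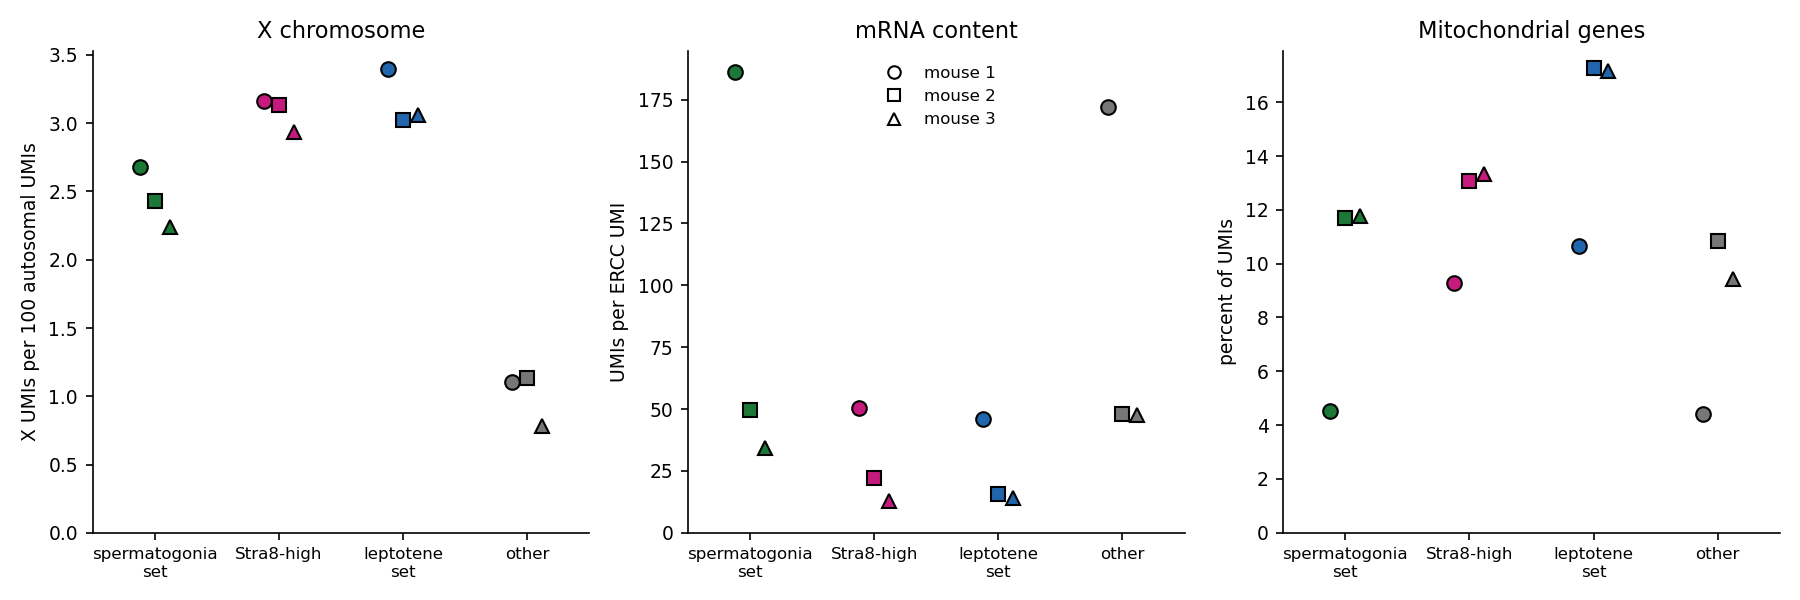
X-linked UMIs per 100 autosomal UMIs (left), UMIs per UMI of the ERCC spike-in (middle) and mitochondrial percent of UMIs (right) in the summed wells of each mouse (marker shape), all axes from 0. The Stra8-high wells lie at 3.16, 3.13 and 2.94 for the X chromosome, beside the leptotene set, and at 50.5, 22.0 and 12.7 UMIs per ERCC UMI.

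The mRNA recovered per cell was low. ERCC spike-in RNA, added in equal amount to each well, gave 50.5, 22.0 and 12.7 UMIs of the cell per ERCC UMI in the Stra8-high wells and 172, 48.0 and 47.6 in the other wells, a log2 ratio of -1.60 ± 0.42 (exact permutation p = 0.25). The spermatogonia set stood at 186, 49.6 and 34.3 and the leptotene set at 45.9, 15.7 and 13.8. The ratio to the leptotene set was 0.17 ± 0.31, with the mice on both sides of 0. Mitochondrial genes gave 9.28, 13.1 and 13.3% of UMIs against 4.42, 10.9 and 9.44% in the other wells, which thinning brought to a log2 ratio of 0.16 ± 0.27. Levels scaled to 1000000 UMIs therefore compare shares of the mRNA and not molecules per cell.

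Of the markers of other testis cells, those of Sertoli and immune cells stood above the other wells in all 3 mice. The summed level of 12 Sertoli cell genes was 4.35, 1.92 and 3.10 UMIs per 10000, against 1.35, 1.52 and 1.49 in the other wells, 1.03 to 2.44 in the spermatogonia set and 3.78, 3.63 and 6.0 in the leptotene set. Of 8 tested 4 were higher than in the other wells (Clu, Aard, Cldn11 and Ctsl) and none lower, beside 18.0% and 27.9% of all genes. Of the higher calls 1 was left without mouse 1 and 1 on thinning. Amh and Trf had no UMI, and Sox9 and Wt1 did not pass the test. Leydig cell genes summed to at most 0.263 and peritubular and vascular genes to at most 0.180 UMIs per 10000, with Cyp11a1, Cyp17a1, Hsd3b1, Acta2, Cdh5, Pecam1 and Vwf at 0. Immune genes summed to 0.113, 0.137 and 0.252 against 0.00864, 0.0394 and 0.0194 in the other wells, all of it Cd3e and 1 further gene, with Cd74, Lyz2 and Ptprc at 0. Cd3e, a T cell receptor subunit and the 1 immune gene tested, had 11 UMIs and stood at 7.51, 13.7 and 25.2 CPM against 0.556, 3.22 and 1.49 CPM. It was called higher (3.26 ± 0.75, edgeR adjusted p = 7.74e-05), a call lost without mouse 3 (0.0617) and with read counts (0.0962). The part of these genes in the other results was not tested. In 1 well of mouse 3 spermatid genes reached 78.7 UMIs per 10000, against a median of 0.691 in the Stra8-high wells of that mouse.

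The 62 wells differed among themselves. The axis list ranged from 35.1 to 125, 39.7 to 92.3 and 33.4 to 89.2 UMIs per 10000 in mice 1, 2 and 3, and the mitotic list from 17.9 to 92.0, 24.6 to 79.0 and 28.8 to 93.4. Across wells the 2 lists rose together, with a Spearman rho of 0.79, 0.64 and 0.63 in the 3 mice, while the replication list and the axis list gave -0.01, -0.46 and -0.45. The wells of a mouse share its libraries, their levels are shares of 1 total and depth differs between them, so these are descriptions of the wells. Kit and Dmc1 were both seen in 37 of the 62 wells, Dmc1 alone in 20, Kit alone in 4 and neither in 1. Their rho was -0.31, -0.24 and -0.19, weak in sparse counts. The rho of Stra8 differed in sign between the mice both with the axis list, at -0.11, 0.08 and -0.09, and with the replication list, at 0.50, -0.11 and 0.28.

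**Figure D5:**
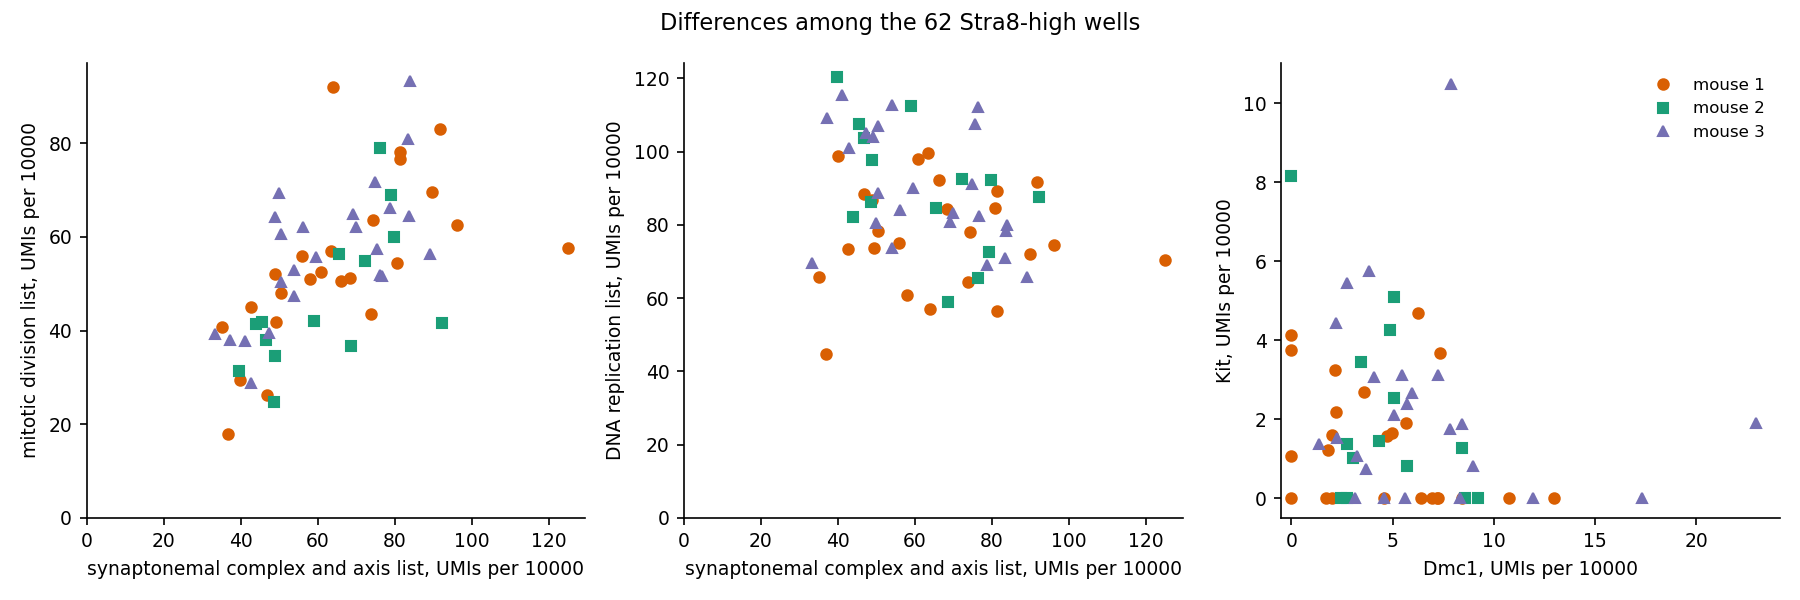
Each point is 1 of the 62 Stra8-high wells, with the mouse as colour and shape. The mitotic division list against the synaptonemal complex and axis list (left), the DNA replication list against the same list (middle) and Kit against Dmc1 (right), all in UMIs per 10000. In the left panel the points rise together, with rho of 0.79, 0.64 and 0.63, and in the right panel most wells with much Dmc1 have little Kit.

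The choice of wells depended in part on the score. Of the 62 wells, 53 were chosen again without Stra8 in the score, 49 with Stra8 alone and 44 when the score was computed on wells thinned to 3000 UMIs. Without Stra8 in the score the calls against the leptotene set fell from 362 to 208 higher and from 292 to 132 lower. Keeping wells from 1000 UMIs gave 72 members with 60 in common, and from 5000 UMIs 56 members with 55 in common.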

How the data were processed

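The authors deposited UMI counts and read counts per gene and well, with BWA 0.7.10 and mm10 named in the submitters' processing notes; the counting steps are not given in the sources used here. The deposited UMI counts were the main values and the deposited read counts an alternative. The deposited table of transcripts, an estimate made from the same UMI counts, was not used here. UMIs of ERCC, mitochondrial genes, eGFP and Rn45s were dropped, and wells with at least 3000 UMIs were kept. Total UMIs in all wells were 16682671, 5866174 and 18032562 in mice 1, 2 and 3. In mouse 1 no count passed 256, which limits abundant genes there. The 8 libraries of mouse 1 could not be told apart by column. Each well received 1 sorted cell and no doublet caller was run.

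UMIs were summed per mouse and class and tested with edgeR 4.0.16 (R 4.3.3; TMM, filterByExpr, quasi-likelihood test, mouse as block, Benjamini-Hochberg over all genes tested), without the genes that chose the wells. The mouse is a true pair, since both classes came from the same animals. Log2 fold changes are given with their SE. CPM are per 1000000 UMIs of the summed wells, without the TMM factors. DESeq2 1.42.0, other size factors, no filter, no block, each mouse left out, thinned wells, read counts, other UMI minimums, other top shares and other scores were alternatives. The test was checked on simulated counts. Single shares were compared with an exact permutation test over mice. Exact binomial intervals of 95% and the floor of 3 counts cover counting error only. Gene lists were described by counts and medians. Genes were named as the 10 largest rises and falls against the other wells and the 5 against each set, among called genes that moved alike in 3 mice and reached 100 CPM, and the 6 most abundant of each list, with Rec8, Spo11, Dmc1, Sycp3, Kit, Ccnd2, Dazl, Prdm9, Meioc and Ythdc2 added. Members, lists and tests were chosen with earlier results of these data known. Promoters are from RefSeq (GRCm38.p6), found for 4 of the 5 genes of the score. The wells of 1 mouse are not replicates of each other, and the edgeR p-values come from a model of 3 mice with the mouse as block. Their size is not a measure of the spread of 1 gene between mice. For Rbpms2, 3.82 ± 0.21 against the other wells gave an edgeR adjusted p of 5.8e-71. A similar 3.89 ± 0.25 against the spermatogonia set gave 1.34e-11. Some genes that the rules named are not reported here.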

Additional observations from a re-analysis of the deposited data

Results flagged for a closer look

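Stra8 was also seen in wells that were too shallow to be kept. The 293, 111 and 288 wells below 3000 UMIs in mice 1, 2 and 3, which no comparison used, held 179 Stra8 UMIs in all, 59, 63 and 57 by mouse, in 35, 28 and 36 wells. That is 273, 485 and 229.5 CPM, above the 57.8, 145 and 101 CPM of the other kept wells and below the 1708, 2908 and 2816 CPM of the Stra8-high wells. Syt7 had 12, 18 and 12 UMIs in the same wells and M1ap 8, 7 and 8.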

How the results depend on the processing

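Against the other wells the count of higher genes, 2076, became 849 on thinning and 1343 with read counts, and that of lower genes, 3230, became 2148 with DESeq2 and 916 on thinning. Against the spermatogonia set 1600 higher became 1058 with DESeq2 and 379 on thinning, and 1776 lower became 1033 and 418. Against the leptotene set 362 higher became 61 with DESeq2, 53 on thinning, 85 with read counts, 162 with the top 3%, 1350 with the top 10%, 208 without Stra8 in the score and 215 without the gate-sorted library. The 292 lower became 45, 54, 51, 142, 1141, 132 and 162 in the same order. Thinning also left fewer genes to test, 7489 against the other wells, 1932 against the spermatogonia set and 1984 against the leptotene set. Part of the drop in calls on thinning is therefore genes that left the test. With 1 mouse left out the leptotene counts ranged from 50 to 619 higher and from 27 to 518 lower. The leptotene comparison thus depends on the animals and on the test, and the cause was not tested. Without the replicate block it gave 61 higher and 29 lower, and against the other wells 1508 and 2469. The X chromosome share kept its direction at 0.84 on thinning, and the mitochondrial share was 0.16.

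Among named genes and their alternatives, 5402 kept direction and side of the threshold, 418 lost the call, 95 gained it and 20 changed direction. With Stra8 alone as the score, the log2 fold change against the other wells was 0.52 for Igsf3, 0.58 for Fkbp9, 0.11 for Aurkb, 1.01 for Panx1, 0.72 for Crabp1, 1.05 for Sohlh1, 0.48 for Sall4, 0.50 for Uchl1, 0.23 for Ccnd2, 0.28 for Ccnb1 and 0.33 for Rad21, and Rad21 against the leptotene set was 1.07. With the top 10% it was 0.03 for Igsf3, 0.19 for Fkbp9 and 0.20 for Panx1 against the other wells, and 0.95 for Rbpms2, 0.53 for Taf7l, 0.57 for Smc3 and 0.66 for Zcwpw1 against the leptotene set. Ctsl was -0.16 on thinning. The cause was not tested. A gene with 3 UMIs in the 62 wells cannot be placed better than its counting interval.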

Other observations

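The genes whose level followed Stra8 most closely from well to well were sought among 9767 genes, as the Spearman correlation over kept wells averaged over 3 mice. Cited1 led with 0.53, then Tex15 (0.52), Ttc3 (0.49), Sgpl1 (0.48), Ptma (0.47), Atm (0.46), Lonrf3 (0.46), Taf7l (0.45), Pgm2l1 (0.45) and Hmgn2 (0.44). The wells share libraries and differ in depth, so the values are descriptions and carry no p. The 10 genes were not at one level in the sets: Ptma, a small nuclear protein, had a mean of 3372 CPM in the Stra8-high wells, 2339 CPM in the spermatogonia set and 856 CPM in the leptotene set, Hmgn2, a nucleosome-binding protein, had 1476, 1419 and 648 CPM, and Atm, a kinase of the DNA damage response, had 461, 171 and 349 CPM. Sgpl1, which breaks down sphingosine phosphate, had 533, 190 and 227 CPM.

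Genes higher than in the leptotene set held the motif CNCCTCAG in 14.6% of 405 promoters, against 11.4% of 5608 promoters of genes tested there. The Y chromosome gave 0.149, 0.108 and 0.107 UMIs per 100 autosomal UMIs in the Stra8-high wells of mice 1, 2 and 3, against 0.0799, 0.0548 and 0.0384 in the other wells and 0.217, 0.151 and 0.130 in the spermatogonia set. On thinning, the log2 ratio to the other wells was 0.29 ± 0.48 (SD, n = 3; exact permutation p = 0.5). The reporter transcript eGFP had 0, 1 and 0 UMIs in the Stra8-high wells and 19, 18 and 20 in the other wells of mice 1, 2 and 3. That is 0, 6.84 and 0 CPM against 1.17, 3.22 and 1.14 CPM, with mouse 2 higher in the Stra8-high wells. These counts are too few to tell whether the level differed.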
